A study of Arabidopsis thaliana with 6 samples.

Results

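The regions described here are the places on the chromosome arms of Arabidopsis thaliana where FLAG-tagged EBS gave a strong peak on a protein-coding gene in every replicate. There were 290 such regions among 7956 merged nuclear regions (3.65%). They were chosen in these steps: peaks of the 3 replicate lists that shared at least 1 bp were merged. A merged region was kept when its best peak score was 300 or more in each list, when it overlapped a protein-coding gene body and no pseudogene, and when its midpoint lay outside the 5 pericentromeric intervals. Of the 7956 regions, 678 (8.52%) passed the score threshold in every list. Of these 678, 323 were pericentromeric and 355 lay on the arms. On the arms 46 overlapped a pseudogene and 19 overlapped neither a protein-coding gene nor a pseudogene, which left the 290. The regions were thus chosen by their peak scores and their overlap with genes, and their high scores are given as a description without a test.

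EBS (EARLY BOLTING IN SHORT DAYS) is a nuclear reader of histone H3. It has a bromo-adjacent homology domain and a plant homeodomain finger, which recognise methylated lysines of the H3 tail, one kind found at silent and another at active genes. Plants without EBS flower early, and SHL is its close relative. Both act with chromatin-modifying enzymes to keep developmental genes such as the flowering signal gene FT off.

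The seedlings were Col-0 of about 10 days, kept on plates in 16 h light and 8 h dark. All carried the ebs shl double mutation and an EBS transgene with a FLAG tag under the native EBS promoter, so the input samples share this background with the ChIP samples. The series had 3 ChIP samples, taken with an anti-FLAG antibody from whole seedlings, and 3 samples of input DNA, which have no peak lists of their own. An untagged control ChIP was not analysed here, so EBS binding and background that recurs with the antibody cannot be told apart. Whether the replicates came from separate plantings is not stated, and how many transgenic lines were used is not stated either.

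The score of a peak is the authors' own value, written by the caller MACS. In output of this caller it is 10 times the negative log10 of the p-value of the peak. The lists held 5237, 4216 and 3661 nuclear peaks in replicates 1, 2 and 3, and 16.6%, 19.7% and 30.3% of them scored 300 or more. A score of 300 thus reached further down the list of replicate 3. The depth behind each list is unknown, because a peak list holds no read counts.

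Over the 290 regions the score ran from 310 to 3209 in replicate 1 (median 1474), from 313 to 3228 in replicate 2 (median 1749) and from 340 to 3215 in replicate 3 (median 1271). The lowest member stood at percentile 83.7, 80.6 and 71.9 of the peaks of replicates 1, 2 and 3. Many scores were exactly 3100 and a few lay above it, and 22 regions (7.59%) had 3100 or more in all 3 lists. The value 3100 was treated here as the top of the score scale, so equal scores of 3100 do not show equal strength. A lowest score of 1000 or more was found in 156 regions, and 23 regions had a lowest score below 400. Replicate 3 gave the lowest of the 3 scores in 142 regions, replicate 1 in 87 and replicate 2 in 39. Below 3100, the order of the regions was most alike in replicates 1 and 2 (Spearman rho 0.91 over 227 regions), and less so in replicates 1 and 3 (0.63 over 231 regions) and 2 and 3 (0.62 over 226 regions). These are correlations across regions that the threshold had already restricted.

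**Figure D1:**
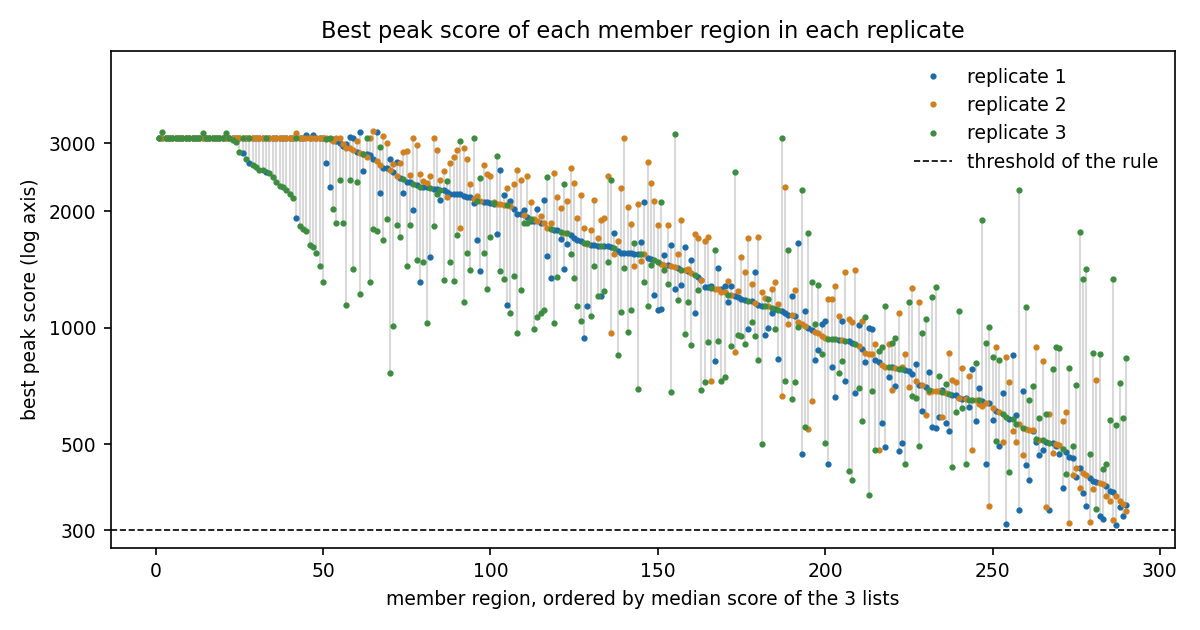
Best peak score (log axis) of each of the 290 regions in replicates 1, 2 and 3, with regions ordered by their median score; grey lines join the lowest and highest score and the dashed line is the threshold of 300. The left end is a plateau at 3100, and the points of replicate 3 reach furthest below the others.

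The regions at the threshold looked like their neighbours on the other side of it. Just inside were AT1G54420 with scores of 310, 368 and 562 in replicates 1, 2 and 3, AT4G38340, which encodes the NIN-like protein NLP3, with 311, 841 and 589, and AT5G01210 with 463, 313 and 786. Just outside, among the arm regions of all 3 lists on protein-coding genes, were AT1G12064 with 296, 684 and 586, AT1G10390 with 474, 550 and 287, and BBX14 (AT1G68520), a B-box protein gene, with 286, 310 and 742. A single list kept each of these 3 out.

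Whether a region strong in 2 lists also reached 300 in the other list was read by building regions from 2 lists alone and looking them up there. Of 307 arm regions on protein-coding genes with 300 or more in replicates 2 and 3, 100% had a peak in replicate 1 and 288 (93.8%, exact binomial 95% interval 90.5% to 96.2%) had 300 or more there. Without regard to score, 38.9% of the regions of replicates 2 and 3 reached 300 in replicate 1. Of 314 regions strong in replicates 1 and 3, 298 (94.9%, interval 91.9% to 97.1%) reached 300 in replicate 2, against 40.8% without regard to score. Of 310 regions strong in replicates 1 and 2, 289 (93.2%, interval 89.8% to 95.8%) reached it in replicate 3, against 37.9%. Among regions that fell short of 300 in 1 or both of the choosing lists, 7.61%, 10.9% and 18.2% reached it in replicates 1, 2 and 3. A region strong in the 2 choosing lists that also reached 300 in the other list met the score rule of the strong regions. The regions counted at 93.8%, 94.9% and 93.2% are thus largely the strong regions again, and not a separate check of them. These shares describe only how far the lists agreed at the threshold. The intervals cover counting error only, and regions of 1 list are not independent replicates.

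Merging joins peaks that share bases, so the distance between the peaks of a region was limited by the way regions were built. The largest distance between the midpoints of the best peaks of a region had a median of 294 bp (range 19 to 2373 bp), and 228 of 290 regions (78.6%) stayed within 500 bp. The 449 weaker arm regions of all 3 lists on protein-coding genes, which missed the score of 300 in at least 1 list, had a median of 298 bp and 78.4% within 500 bp. All 3 best peaks shared bases in 289 of the 290 strong regions (99.7%) and in 424 of the 449 weaker ones (94.4%). The exception was DND1 (AT5G15410), a cyclic nucleotide-gated channel gene, with scores of 2212, 1812 and 3038. Its midpoints lay up to 2373 bp apart.

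The best peak had a median width of 1571, 2079 and 1031 bp in replicates 1, 2 and 3 in the strong regions, against 1025, 1284 and 850 bp in the weaker ones. Replicate 2 had the widest best peak in 228 of the 290 strong regions, and replicate 3 had the narrowest in 245. In 160 strong regions (55.2%) the replicate 3 peak lay wholly inside the peaks of the other replicates, against 115 weaker regions (25.6%). Merged strong regions had a median length of 2396 bp (988 to 5626 bp) against 1615 bp for the weaker. No test was made between these groups, since the rule split them by score.

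**Figure D2:**
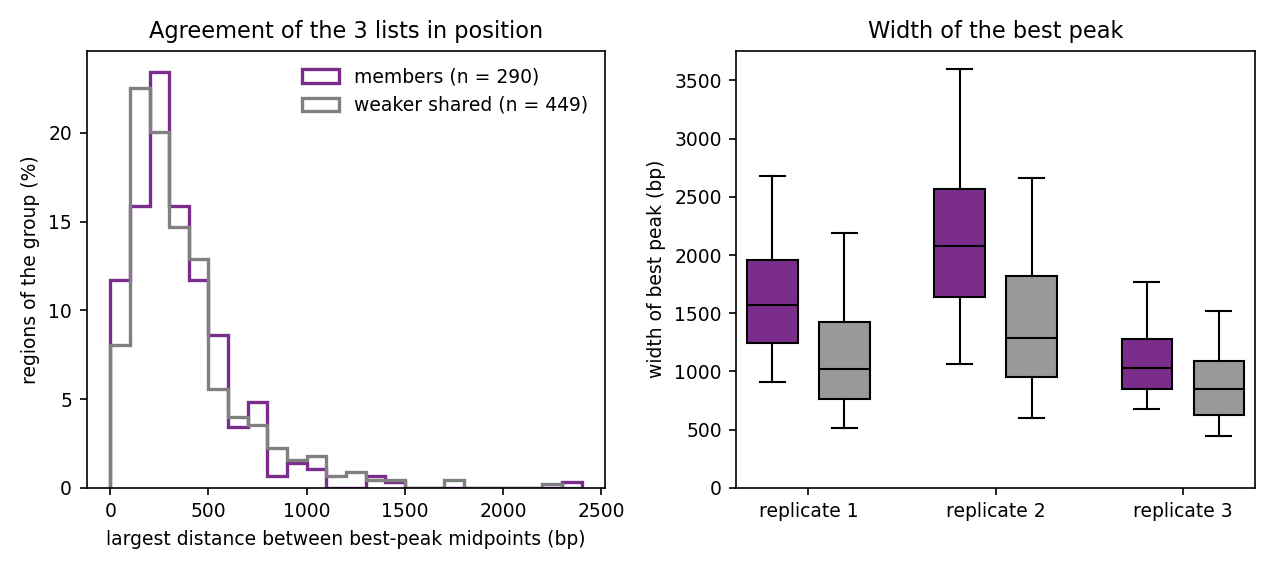
Left, the largest distance in bp between the best-peak midpoints of the 3 lists, as a percentage of the 290 strong regions (purple) and of the 449 weaker shared regions (grey); right, the width in bp of the best peak in each replicate, with strong regions left of weaker ones, boxes from the lower to the upper quartile, a line at the median and whiskers at percentiles 5 and 95. The distances overlap almost fully, and the strong boxes lie higher in every replicate.

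The region on PP2CA (AT3G11410), a phosphatase that switches off abscisic acid signalling, was the most even of all below 3100. Its scores were 2090, 2108 and 2102, and its midpoints lay within 31.5 bp of each other on chromosome 3 from 3583491 to 3586033. Next came AT2G27580 with 2020, 1962 and 1861, and PRA1.B6 (AT5G07110), a gene for a Rab-acceptor family protein, with 697, 636 and 650. The widest ratio between highest and lowest score below 3100 was 6.7, at TEM2 (AT1G68840, listed as RAV2), a repressor of FT, with 338, 563 and 2268. Replicate 3 gave the highest score there and in the next 2. BXL1 (AT5G49360), a beta-xylosidase of the cell wall, had 472, 1021 and 2276, and COL5 (AT5G57660), a CONSTANS-like gene, had 434, 384 and 1768.

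The rule asked for any shared base with a gene body, and the gene with most overlap was then taken as the gene of the region. Both steps favour a midpoint inside that gene, so the shares below are a description only. The midpoint of the best peak lay in the gene with most overlap in 88.3%, 85.5% and 89.0% of the 290 regions in replicates 1, 2 and 3 (87.6% ± 1.82, SD, n = 3), against 88.9% ± 0.803 for the weaker regions. It did so in all 3 lists for 242 regions and in none for 26. Among midpoints inside the gene, 39.8%, 42.7% and 41.9% lay in the central of 3 equal parts of the body, against 42.0%, 42.9% and 41.9% for the weaker regions. Strand and exons were not used, so start and end of a gene could not be separated. In 277 of the 290 regions that gene had a peak of all 3 lists on its own body, and in 273 each of those peaks scored 300 or more.

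Short genes were mostly covered whole. The gene with most overlap was covered in full in 127 regions (43.8%), against 104 of 449 weaker ones (23.2%). Full cover was found for 23 of 25 genes under 1000 bp, 75 of 107 of at least 1000 but under 2000 bp, 26 of 79 of at least 2000 but under 3000 bp and 3 of 79 longer genes, whose median cover was 47.4%. The genes themselves were of ordinary length, with a median of 2105 bp against 2121 bp for all 24049 protein-coding genes on the arms, and carried a mean of 1.77 annotated transcripts against 1.78. A single protein-coding gene was touched by 157 regions, 2 by 109, 3 by 19 and 4 by 5. In all 452 genes were touched, which is 1.88% of the arm genes, and 351 of them had a peak of all 3 lists on the body. In 82 regions less than 50% of the region lay on its gene.

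The longest regions were those on AT1G15830 (5626 bp), AT2G47440 (5186 bp), AT3G22125 (5130 bp), BXL1 (4995 bp) and AT4G33970 (4877 bp). That on AT1G15830 also took in 3 other genes, as did the one on MC1 (AT1G02170), a metacaspase gene, which scored 3100, 3100 and 1828. The region on AT3G57710 touched 4 genes as well and scored 1093, 1260 and 1126, and none of its best-peak midpoints lay in that gene. The shortest were on AT3G50140 (988 bp), AT1G27570 (995 bp) and AT2G01050 (1061 bp), with lowest scores of 553, 426 and 444.

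The 22 regions at 3100 or more in all lists were ranked as equal in score and ordered by the bases covered. The first 10 in that order lay on AT3G22125, AT2G47440, AT4G38670, LRX3, STN1, AT5G11550, AT1G67870, MC2, AT4G11870 and AT4G16820. The best peaks agreed most closely at AT1G67870, where midpoints lay within 67 bp and all 3 best peaks shared 1857 bp. MC2 (AT4G25110), a metacaspase gene like MC1, was wholly covered, with best peaks of 2230, 1677 and 1782 bp. Some of these assignments were loose. On AT4G11870 lay 17.8% of its region, and on STN1 23.1%. The regions on AT2G47440 and AT4G38670 also touched CAO and GRP2, and none of their best-peak midpoints lay in AT2G47440 or AT4G38670. Further regions at this level were named after their values were seen. They included RBOHD (AT5G47910), the oxidase that makes reactive oxygen in plant defence, and EXL2 (AT5G64260), an EXORDIUM-like gene.

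The strong regions were spread along the arms. Chromosomes 1 to 5 held 77, 40, 62, 48 and 63 of them, or 3.18, 2.94, 3.77, 3.48 and 3.15 per Mb of arm. Neighbouring midpoints were a median of 194 kb apart, and 10 neighbour pairs lay within 10000 bp. In 3 of the 10 pairs both genes had a symbol. AGO2 and AGO3, tandem Argonaute genes of RNA silencing, had scores of 3100, 3100 and 2557, and of 2668, 3100 and 3100, with 4942 bp between the regions. TLP-3 and PR5, thaumatin-like genes of which PR5 marks defence, had 1178, 1395 and 909, and 1199, 1241 and 960. The region on PR5 touched 3 genes, 29.0% of it lay on PR5, and none of its best-peak midpoints lay in PR5. GRP16 and GRP20, pollen-coat genes, had 506, 894 and 516, and 2219, 2767 and 1322. How reads that fit several copies were placed is not given in the sources used here, so values of such neighbours may share reads.

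Gene families were read against the 1.88% of arm genes on a strong region and the 2.52% on a weaker one. Of 32 lists and families, 24 had at least 1 gene on a strong region and 20 had a share above 1.88%, many of them from 1 or 2 genes. No test was made on any list. The lists hold only genes whose symbol or synonym matched a pattern, which can include genes of another family with the same symbol. Every count and share, a count of 0 included, thus covers the matched genes and not every gene of a family. UNE10 (AT4G00050), a bHLH gene on a strong region with 3100, 3100 and 2164, and AIF1 (AT3G05800), another with 2548, 2818 and 2820, were missed in this way and were named after their values were seen. Together they held 1741 arm genes, of which 61 (3.5%) lay on a strong and 79 (4.54%) on a weaker region.

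**Figure D3:**
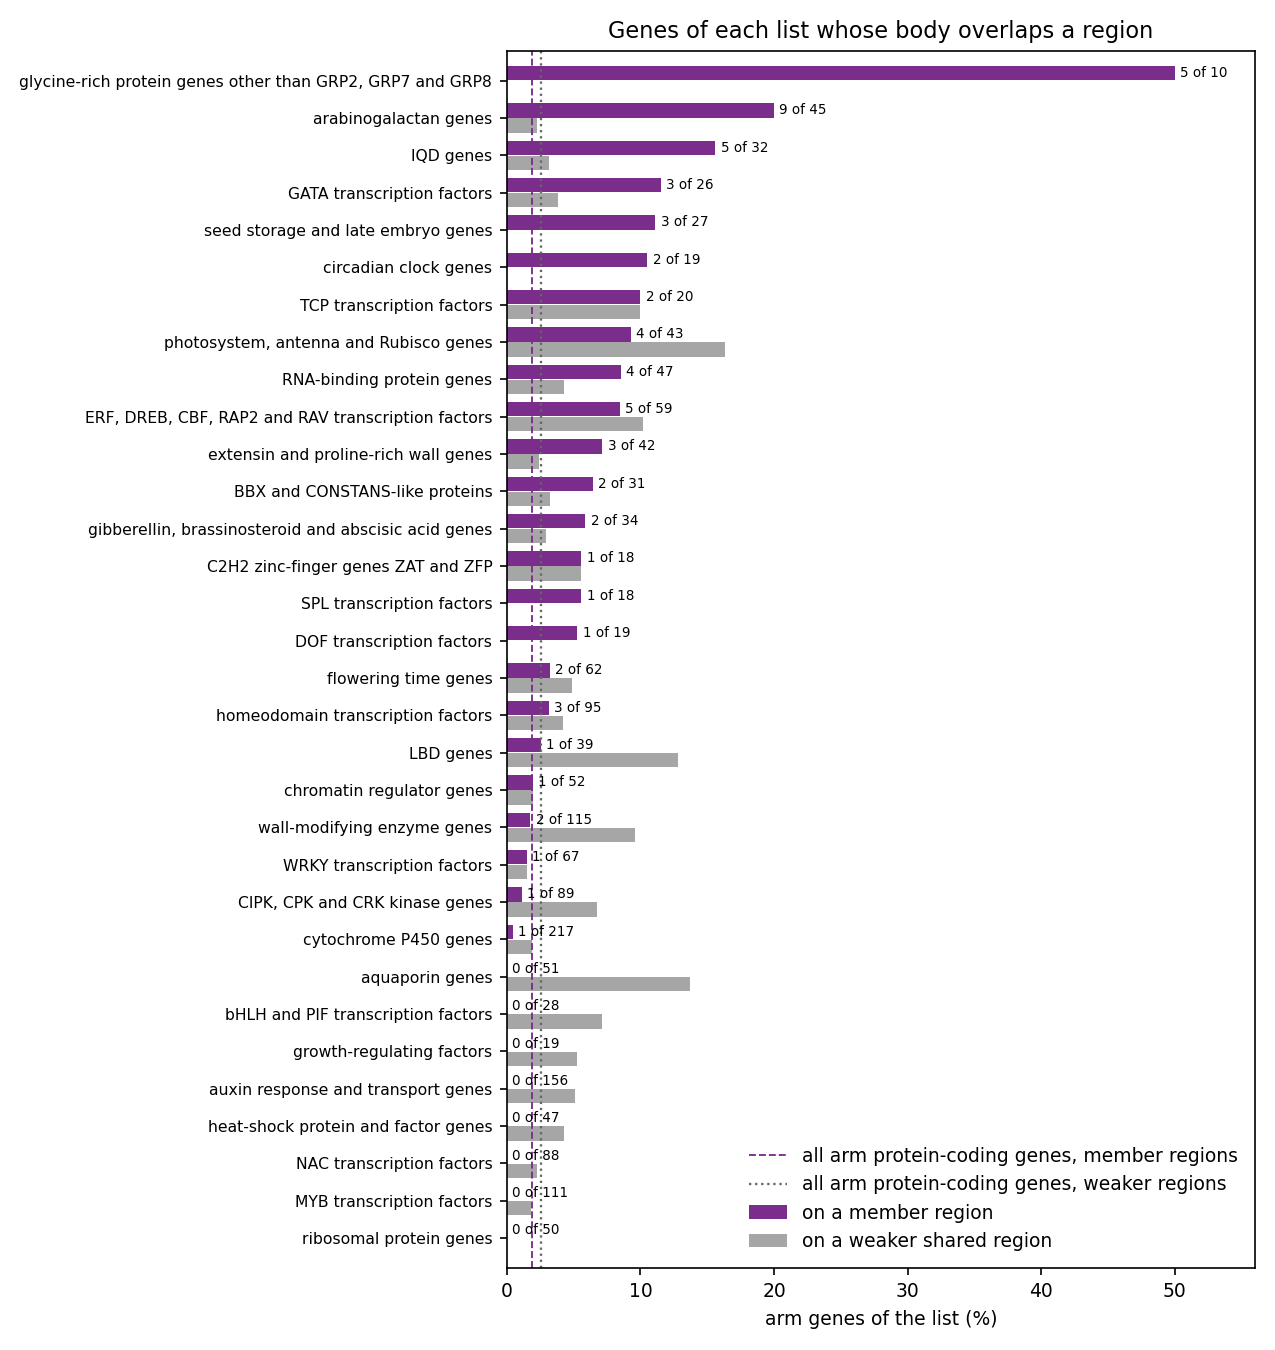
Percentage of the arm genes of each of the 32 lists whose body overlaps a strong region (purple, with counts) or a weaker shared region (grey); the dashed and dotted lines are the shares over all arm protein-coding genes, 1.88% and 2.52%. Glycine-rich protein and arabinogalactan genes have the longest purple bars, while the symbol-matched aquaporin, auxin and ribosomal lists have none.

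Genes for glycine-rich proteins made up the highest share. Outside the RNA-binding members, 5 of 10 genes with a GRP symbol on the arms touched a strong region (50%), in 4 regions, and none touched a weaker one. GRP5 (AT3G20470) had scores of 3100, 3100 and 3024, and GRP23 (AT2G32690) had 1700, 2038 and 1767. Both genes were covered in full by their regions. GRP16, GRP19 and GRP20 encode oleosin-domain proteins of the pollen coat. GRP19 counted through 23 bp of its body, which the replicate 2 peak alone reached. No more is drawn from the share, since 10 genes is a small list.

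The symbol-matched list of RNA-binding protein genes held 4 of 47 genes (8.51%), against 2 on weaker regions. It does not hold every such gene: PAB8 (AT1G49760), a poly(A)-binding protein gene named after its values were seen, had 3100, 3100 and 1444. The pair GRP7 (AT2G21660) and GRP8 (AT4G39260, listed as CCR1) encode clock-controlled, cold-responsive RNA-binding proteins, of which GRP7 promotes flowering. Both scored 3100 in each list and both were covered in full, on chromosome 2 from 9264205 to 9266762 and on chromosome 4 from 18273629 to 18275613. The replicate 3 peak on GRP7 was 955 bp wide against 2284 and 2558 bp in replicates 1 and 2. GRP2 (AT4G38680), a cold-shock domain protein gene, lay in a region at 3100 that had its largest overlap with AT4G38670. RZ-1A (AT3G26420), a zinc-containing glycine-rich RNA-binding protein, was lower at 609, 890 and 509, and 45.9% of its body was covered.

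Arabinogalactan proteins are heavily glycosylated proteins of the cell surface, and fasciclin-like members carry an adhesion domain. Of 45 such genes, 9 lay on a strong region (20%), each on its own region, and 1 lay on a weaker one. AGP4 (AT5G10430) and the pollen gene AGP11 (AT3G01700) had 3100 in each list. AGP7 (AT5G65390) had 2811, 2756 and 3100, and FLA8 (AT2G45470) had 1883, 2115 and 1916. AGP6 (AT5G14380), the pollen partner of AGP11, had 1078, 1020 and 1591. AGP19, AGP23, FLA10 and FLA17 had lowest scores of 540, 1093, 728 and 506. In 8 of the 9 the whole gene was covered, FLA17 being the exception at 77.7%. The regions on AGP11, AGP19 and AGP23 had their largest overlap with another gene.

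Extensin and proline-rich wall genes held 3 of 42 (7.14%), against 1 on a weaker region. Next to LRX3 (AT4G13340), a leucine-rich repeat extensin, were ELP (AT1G12090), an extensin-like gene, with 2105, 2149 and 3100, and PERK13 (AT1G70460), a proline-rich receptor-like kinase, with 550, 686 and 1276. The list of wall-modifying genes, which does not hold BXL1, had 2 of 115 genes on strong regions (1.74%) and 11 on weaker ones (9.57%). The strong share was near that of all arm genes. The 2 were GAE2 (AT1G02000), which makes a pectin precursor, with 3209, 2829 and 1221, and AT2G47670, a pectin methylesterase inhibitor, with 385, 574 and 485. GAE2 was thus high in replicates 1 and 2 and lower in replicate 3.

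Among transcription factors, the ERF, DREB and RAV list held 5 of 59 genes (8.47%) on strong regions and 6 on weaker ones. ERF4 (AT3G15210), a repressor of ethylene and jasmonate responses, was at 3100 in each list and covered in full. ERF13 (AT2G44840) had 1524, 2465 and 2291, ERF8 (AT1G53170), a repressor like ERF4, had 1290, 1905 and 1412, and ERF38 (AT2G35700) had 1145, 1718 and 825. The remaining gene of the list on a strong region was TEM2. The pattern missed other genes of this family on strong regions, and 2 of them were named after their values were seen. DDF2 (AT1G63030, listed as ddf2) had 1136, 1649 and 1660, and ESR1 (AT1G12980) had 2291, 3100 and 1836. The share of 8.47% is thus that of the matched symbols and not of the family.

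GATA factors held 3 of 26 genes, against 1 on a weaker region. GNC (AT5G56860), which promotes chloroplast development, had 2117, 2635 and 1563, and GATA5 (AT5G66320) had 1669, 1488 and 1550. GATA7 (AT4G36240) counted through the replicate 2 peak alone, with a score of 1707, and its body had no peak in replicates 1 and 3. Of 31 BBX and CONSTANS-like genes, 2 were on strong regions: COL4 (AT5G24930), a flowering repressor at 3100 in each list, and COL5. Of 20 TCP genes, 2 were strong and 2 were weaker. TCP4 (AT3G15030), which limits growth of the leaf blade, had 1555, 1446 and 1658.

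Homeodomain genes held 3 of 95 (3.16%), against 4 on weaker regions. HB22 (AT4G24660), a zinc-finger homeodomain gene, had 2591, 3008 and 1912. BLH1 (AT2G35940), a BEL1-like gene, had 761, 1271 and 666, and ZFHD1 (AT1G69600), of the same class as HB22, had 339, 599 and 504. SPL8, DOF2.4, LBD27, ZFP4 and WRKY26 were each the only gene of their list on a strong region, with lowest scores of 446, 443, 606, 1028 and 636. WRKY26 shared the region of PRA1.B6 and 42.7% of its body was covered. None of 111 MYB, 88 NAC, 28 bHLH and PIF or 19 GRF genes matched by a numbered family symbol touched a strong region. A weaker one was touched by 2, 2, 2 and 1 of them. The 19 were listed as growth-regulating factors but may include genes of another family with the same symbol.

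IQD proteins bind calmodulin and sit on microtubules and membranes. Of 32 IQD genes, 5 lay on a strong region (15.6%), each on its own, and 1 on a weaker region. IQD22 (AT4G23060) had 3159, 3100 and 1778, and IQD24 (AT5G07240) had 3202, 2700 and 1782. IQD25 (AT4G29150) had 1638, 1794 and 1070, IQD21 (AT3G49260) had 997, 1135 and 1187, and IQD26 (AT3G16490) had 775, 704 and 1164. The order of the lists was thus not the same in all 5, since replicate 3 was lowest in the first 3 of these and highest in the last 2. None of the 5 was covered in full, with shares of 43.0% to 86.9%.

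Hormone genes held 2 of 34 in the gibberellin, brassinosteroid and abscisic acid list (5.88%): RGL3 (AT5G17490), a DELLA growth repressor, with 1217, 2128 and 1494, and ABI4 (AT2G40220), a transcription factor of abscisic acid signalling, with 573, 650 and 812. Some further hormone genes were picked after their values were seen, with no list or count behind them. PYL5 (AT5G05440), an abscisic acid receptor gene, had 2316, 3068 and 3100, and HAI1 (AT5G59220), a phosphatase gene, had 956, 1195 and 1138. The cytokinin breakdown genes CKX4 (AT4G29740) and CKX5 (AT1G75450) had 1931, 2465 and 1861, and 1508, 2365 and 1454. The cytokinin synthesis gene IPT3 (AT3G63110) had 929, 1072 and 763. None of the 156 genes matched by an auxin symbol touched a strong region, and 8 touched a weaker one.

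Photosystem, antenna and Rubisco genes held 4 of 43 on strong regions (9.3%) and 7 on weaker ones (16.3%). LHB1B1 (AT2G34430) and LHB1B2 (AT2G34420), neighbouring genes for a light-harvesting protein of photosystem II, shared 1 region with 1317, 2494 and 2318. On the body of LHB1B1 alone the replicate 1 score was 521. PSAD-1 (AT4G02770), a photosystem I subunit gene, was uneven at 1107, 665 and 3100, and LHCB6 lay in the long region on AT1G15830. With each region given to the gene with most overlap alone, 2 of the 43 were strong.

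Seed storage and late embryo genes held 3 of 27 (11.1%), with none on a weaker region. LEA4-5 (AT5G06760), a desiccation protein gene, had 608, 710 and 969 and was covered in full, and CRA1 (AT5G44120), a cruciferin gene, had 504, 792 and 784 and was covered over 47.2% of its body. CRU2 touched its region with 65 bp, and its own body had a replicate 1 peak of 27.9 and no other. With each region given to the gene with most overlap alone, 1 of the 27 was strong, and with a score threshold of 1000 none was.

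Flowering and chromatin are the fields in which EBS is known. Of 62 listed flowering time genes on the arms, 2 lay on strong regions (3.23%), TEM2 and REF6, and 3 on weaker ones (4.84%). The list does not hold COL4 or GRP7, nor FIP2 (AT4G17060), a FRIGIDA-interacting protein gene with 3121, 2907 and 2416, nor ELF7 (AT1G79730), an EARLY FLOWERING gene with 410, 314 and 473. These 4 were set beside the list after their values were seen. Of 52 chromatin regulators 1 was strong, REF6 (1.92%), and 1 was weaker. REF6 removes methyl groups from lysine 27 of histone H3. It had 1170, 1297 and 1036, and its region covered 28.0% of the gene. The demethylase gene JMJ30 (AT3G20810, listed as JMJD5), outside the list and named afterwards, had 1704, 2373 and 1343. Of 19 clock genes, 2 were strong, ZTL and AT5G08330, which encodes CHE, a TCP-class repressor of the clock gene CCA1 listed as TCP11. The CHE gene had 1690, 1928 and 1140 and was covered in full, while ZTL, which encodes a light-sensing F-box protein, was covered over 33.3% by a region with 2680, 2466 and 1847 that lay mainly on AT5G57370.

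**Figure D4:**
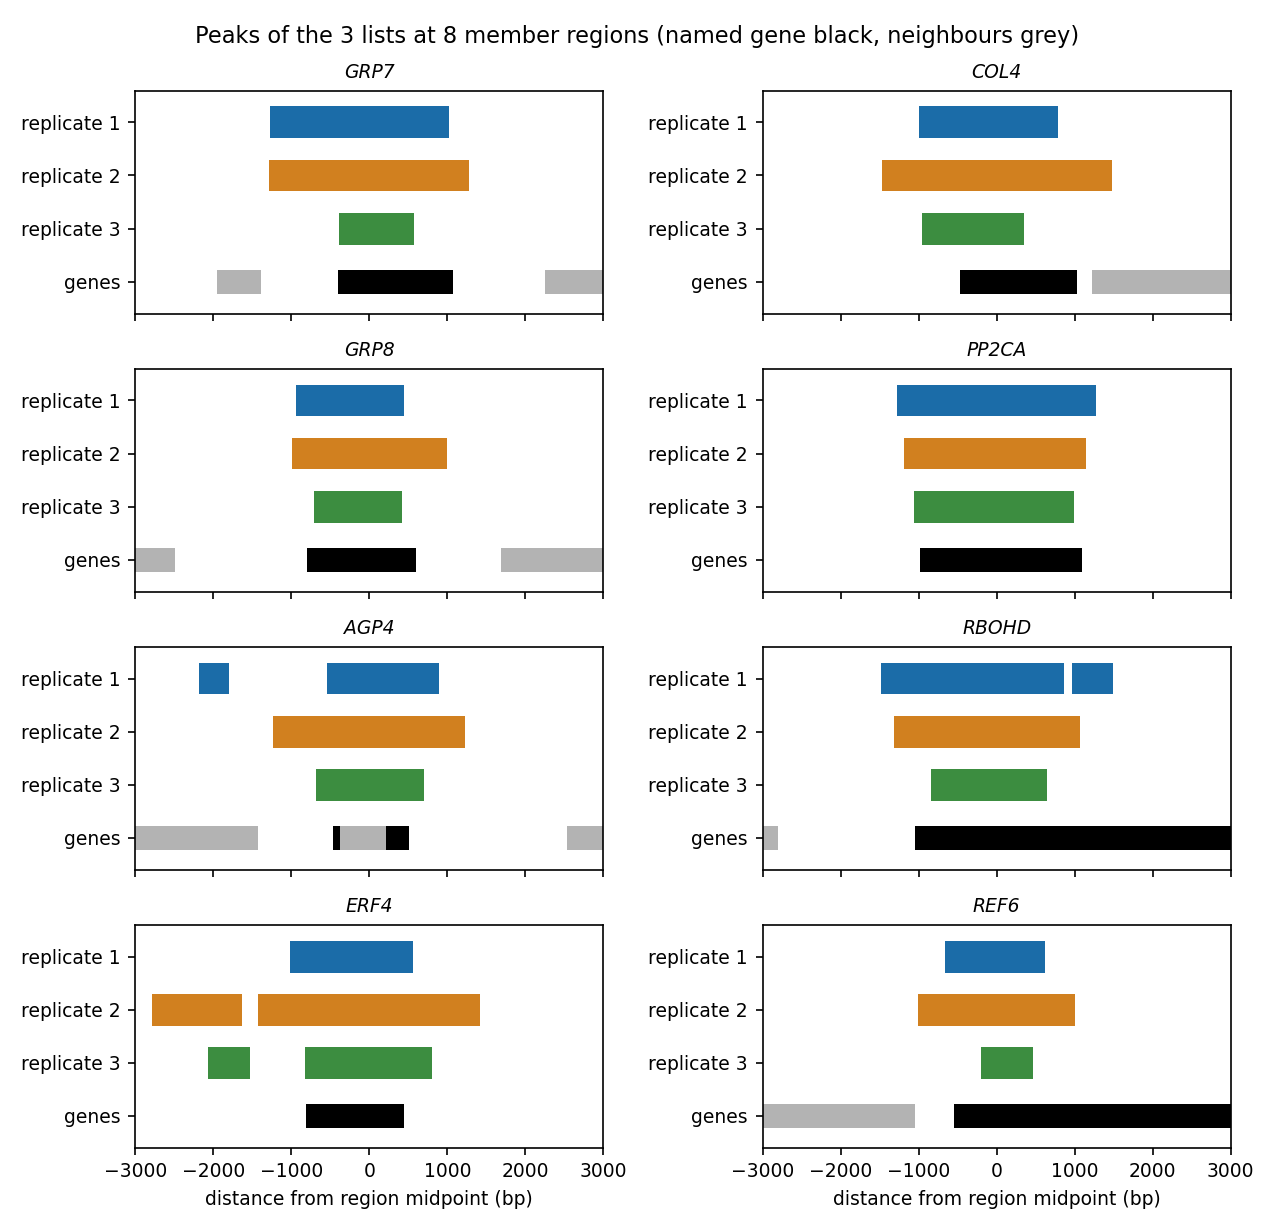
Peaks of replicates 1, 2 and 3 (coloured bars) and protein-coding genes (the named gene black, others grey) around 8 strong regions, by distance in bp from the region midpoint. The regions cover GRP7, GRP8, AGP4, ERF4, COL4 and PP2CA in full, but 50.4% of RBOHD and 28.0% of REF6, and the best peak of replicate 3 is the narrowest at 7 of the 8, ERF4 being the exception.

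Of 217 cytochrome P450 genes 1 was strong (0.461%), CYP72A13 (AT3G14660) with 1327, 1331 and 689, and 4 were weaker. The region on CYP72A13 covered 35.3% of the gene and also touched AT3G14670. None of its best-peak midpoints lay in CYP72A13. Of 89 CIPK, CPK and CRK kinase genes matched by symbol 1 touched a strong region, CPK28, and 6 touched a weaker one. CPK28 counted through 249 bp at its edge, and its body had no peak in replicate 3. The pattern missed 2 CRK genes on strong regions that were named after their values were seen. AT3G19100 had 1212, 1078 and 653, and AT1G49580 had 884, 1042 and 575. None of the genes matched by an aquaporin (51), heat-shock (47) or ribosomal protein (50) symbol was strong, and 7, 2 and 0 were weaker. The 51 may include genes that are not aquaporins. The ribosomal pattern missed genes of its family on strong regions, of which some were named after their values were seen. XW6 (AT1G58380) had 996, 857 and 370, and AT3G09630 had 321, 395 and 433. AT3G57490 had 1562, 3100 and 1431, but none of the best-peak midpoints lay in that gene. AT-hook AHL genes, DNA-binding proteins counted only after their values were seen, held 4 of 28 strong (14.3%) and 1 weaker. AHL19 (AT3G04570) had 2237, 2628 and 2935, AHL20 (AT4G14465) had 1788, 2172 and 1349, GIK (AT2G35270) had 1564, 2301 and 1099, and AGF1 (AT4G35390) had 648, 629 and 1902. All 4 were covered in full.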

How the data were processed

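The submitters' processing notes name build TAIR10 and the tools Bowtie2 (2.2.8), SAMtools (1.3) and MACS (1.4). How input entered peak calling, and at which threshold, is not stated. Each ChIP sample came with its own list, in which the authors gave every peak a score. Positions follow these lists (TAIR10) and start at 1.

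Chloroplast and mitochondrial peaks were left out. Genes came from a RefSeq table of assembly TAIR10.1 (27432 nuclear protein-coding genes), with no strand, exons or sequence. Its nuclear frame was taken to be that of TAIR10: of 907 arm regions of all 3 lists, taken whether or not they overlapped a gene, 75.4% had their midpoint in a protein-coding gene, against 52.8% to 65.4% after shifts of 1000 to 50000 bp either way. The planned promoter and protein sequence results were not run.

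Pericentromeric intervals were 11.5 to 17.7, 1.1 to 7.2, 10.3 to 17.3, 1.5 to 6.3 and 9.0 to 16.0 Mb on chromosomes 1 to 5. Percentiles used scores capped at 3100. Merging was tested on simulated lists in which every region lay apart from the rest, so joining of close neighbours was not tested. Python 3.11.15, pandas 2.3.3 and SciPy 1.17.1 were used. The regions and gene lists were chosen with earlier results of these data known. Genes were named by rank, length, evenness, threshold, shared bases, genes touched, close pairs and the best 4 of each list. Others are marked as named afterwards. The AGP, FLA, IQD, GRP and ERF genes beyond the best 4 were also named afterwards. No comparison was tested, because the rule used the scores and regions are not replicates.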

Additional observations from a re-analysis of the deposited data

How the results depend on the processing

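The number of strong regions stayed between 223 and 332 under scores of 200 or 500, a 50% peak overlap, a region midpoint in a gene, pseudogenes allowed, borders moved by 1 Mb and the top 15% of peaks of each list. At a score of 1000 it was 156, with 240 genes touched and 36 list genes. Leaving out 1 replicate gave 307 to 314 regions, 412 to 476 genes and 63 to 65 list genes. Of the 452 genes, between 388 and 446 were found again without 1 replicate. The median distance between midpoints was 149.2 to 194.5 bp with 1 replicate left out, as it then spans a single pair. With every gene touched counted, 92.6% of best-peak midpoints lay in a gene. Of 192 counts for single lists, 162 stayed within 1.5 times the reported count, and 30 did not, mostly in lists with few genes on strong regions. No paired analysis was possible because the input samples have no values here. The planned promoter and protein sequence alternatives were not run. Depth is unknown, so absence of a peak in a list does not show absence of binding.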
